A study of Homo sapiens with 43 samples.

Results

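The comparison asked which transcripts still differed from vehicle in cells that had been given dexamethasone at 1 µM for 3 days and had then been grown without it for another 3 days. It used the 3 day 6 libraries labelled dex high6 (replicates 2, 3 and 4) and the 4 day 6 libraries of cells given ethanol vehicle only, 7 of the 43 libraries of the series, chosen by their treatment label and day. The vehicle libraries are labelled by the hormone and dose they accompany: dex vehicle high (replicate 4), dex vehicle low (replicate 3), cort vehicle high (replicate 1) and cort vehicle low (replicate 2), where cort stands for hydrocortisone. Each of these labels has 1 library on day 6, and the mean of the 4 was the control. All cells were HMC3, an immortalised human line labelled as microglial, and the flask's cells were counted and reseeded in plain growth medium when the hormone was taken away. Values set beside them came from 3 libraries collected at the end of the 3 days of dexamethasone 1 µM with 12 vehicle libraries of that day, and from 3 day 6 libraries each of dexamethasone 0.01 µM, hydrocortisone 10 µM and hydrocortisone 0.01 µM.

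Dexamethasone is a synthetic glucocorticoid that binds the glucocorticoid receptor, encoded by NR3C1. The empty receptor is held in the cytoplasm by HSP90 and its co-chaperones, and the bound receptor enters the nucleus, where it activates genes through response elements in DNA and lowers the output of others, in part through contacts with AP-1 and NF-kB. Among its best known direct targets are genes that damp the hormone or inflammatory signalling, such as FKBP5, TSC22D3, PER1, NFKBIA and DUSP1, and in connective tissue cells it changes matrix, coagulation and growth factor genes.

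The 7 libraries held 13930069 to 18733682 counts. Ribosomal RNA took 12.64 to 30.5% of the counts in 5 of them, 64.37% in dexamethasone replicate 3 and 77.12% in the dex vehicle high library, which left 3187758 to 15494601 counts for other genes. Markers of fibroblasts and pericytes were abundant: 12 of 18 had a median above 1 CPM (read counts scaled to library size, here without ribosomal RNA), and their sum was 5150 to 5830 CPM in the dexamethasone libraries and 4320 to 5030 CPM in the vehicle libraries. Of 25 markers of microglia and macrophages 8 were in the table, with a sum of 136 to 142 CPM after dexamethasone and 147 to 181 CPM after vehicle. CD68, CSF1R and TREM2, which mark macrophages and microglia more closely, reached at most 0.627, 0.774 and 0.904 CPM, so the label of a microglial cell was not matched by these markers. The sum of the mesenchymal markers was higher in the dexamethasone libraries, largely through COL1A1, and its part in the results was not tested. In these bulk libraries fewer cells of a kind and less RNA per cell cannot be told apart. The labels describe separate flasks but not separate cell stocks, so the p-values reflect only how much these libraries scatter, which may be technical.

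On day 6, after growth in medium without the hormone, 1708 of 16816 tested genes (10.2%) differed from vehicle. The limit was an adjusted p under 0.05 (edgeR quasi-likelihood test, Benjamini-Hochberg). Of these genes 862 were higher (5.13%) and 846 lower (5.03%). Changes were modest, with a median rise of 0.64 and a median fall of -0.40 on the log2 scale, and the median over all tested genes was 0.02. The 3 dexamethasone libraries lay wholly above or below the 4 vehicle libraries for 1476 of the 1708 called genes (86.4%). Over all tested genes the share was 20.2% (9.38% above, 10.8% below). A gap between groups was thus usual among called genes and adds little to a call. Changes of at least 2-fold numbered 260 higher (1.55%) and 86 lower (0.511%). That excess of rises sat among weakly expressed genes: where the mean log2 CPM was 1 or more the numbers were 64 and 49, and with the 4 vehicle libraries fitted as 1 group they were 155 and 95 over all genes. Without dexamethasone replicate 2 the calls fell to 1063, of which 154 were at least 2-fold higher. With the vehicle libraries as 1 group there were 1548 calls, and leaving out in addition the 2 libraries above 60% ribosomal RNA gave 1038, of which 126 were at least 2-fold higher.

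**Figure D1:**
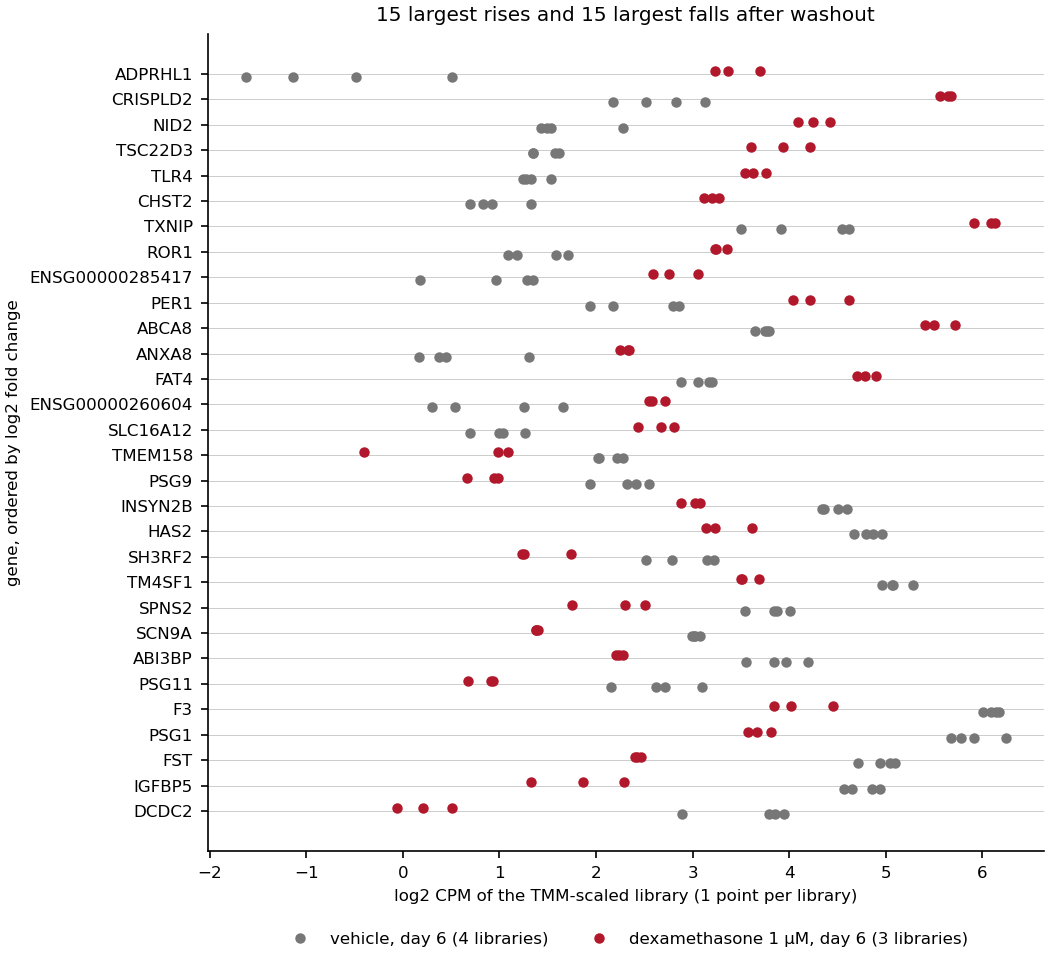
Log2 CPM of the TMM-scaled library for the 15 largest rises and 15 largest falls whose mean log2 CPM was 1 or more and whose groups did not overlap; each point is 1 library, red for dexamethasone 1 µM on day 6 (3 libraries) and grey for day 6 vehicle (4 libraries). No overlap was a condition of the choice, so the gap between colours shows size and scatter, from ADPRHL1 with a log2 change of 4.11 at the top to DCDC2 with -3.38 at the bottom.

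Many direct targets of the glucocorticoid receptor were higher than vehicle. Of 42 tested genes in a list of such targets 17 were higher and 4 lower than vehicle, with a median log2 change of 0.27 (50% called, against 10.2% of all genes). TSC22D3 (chrX:107713221-107777342), which encodes the leucine zipper protein GILZ and restrains NF-kB and AP-1, stood at 18.6, 15.3 and 12.2 CPM of the TMM-scaled library in dexamethasone replicates 2, 3 and 4, and at 3.07, 2.99, 2.55 and 2.54 CPM in the dex vehicle high, dex vehicle low, cort vehicle high and cort vehicle low libraries. Every dexamethasone library was thus far above every vehicle library, and the fitted difference was 5.52-fold (log2 2.46, 95% interval 1.99 to 2.94, adjusted p = 5.65e-09). PER1, a period gene of the circadian clock that the receptor also switches on, measured 24.5, 18.5 and 16.4 CPM against 6.96, 7.26, 4.53 and 3.83 CPM (log2 1.86, adjusted p = 4.05e-08).

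FKBP5, the HSP90 co-chaperone that lowers the receptor's affinity for hormone, stood at 51.7, 54.4 and 60.5 CPM after dexamethasone and at 30.4, 27.5, 32.9 and 28.5 CPM after vehicle. The groups did not overlap, and the rise was 1.87-fold (log2 0.90, 95% interval 0.66 to 1.14, adjusted p = 9.79e-07). KLF9, a transcription factor, rose by 1.12 on the log2 scale, and NFKBIA, the inhibitor that holds NF-kB in the cytoplasm, by 1.12 as well. The other members that rose included CEBPD (0.95), the amino acid transporter SLC7A2 (1.16), BIRC3 (1.08), GADD45B (0.56) and DDIT4 (0.47). CRISPLD2 (chr16:84819984-84920768), a secreted protein that glucocorticoids induce in airway muscle, had 47.0, 50.1 and 51.2 CPM against 4.53, 5.74, 8.71 and 7.10 CPM, a 7.80-fold rise (log2 2.96, 95% interval 2.64 to 3.29, adjusted p = 5.17e-15).

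Other well known targets did not pass the test. DUSP1, a phosphatase that switches off MAP kinases, measured 163, 141 and 135 CPM against 98.4, 120, 71.4 and 88.4 CPM, so the groups were apart, but the difference of 0.66 had an interval of 0.02 to 1.30 (adjusted p = 0.207). SGK1, a kinase that regulates ion transport, overlapped between groups at 36.4, 36.1 and 32.7 against 34.5, 34.8, 26.6 and 32.5 CPM (log2 0.14, interval -0.31 to 0.58, adjusted p = 0.781). The 4 members that fell were SPSB1 (-0.91), ANXA1 (-0.36), CEBPB (-0.41) and KLF15 (-1.59). Leaving out dexamethasone replicate 3, dexamethasone replicate 4 or the dex vehicle high library gave 2 lower calls, and leaving out any 1 library gave 13 to 16 higher ones.

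Apart from the rise of FKBP5 (0.90), changes in the receptor and its chaperones were small. NR3C1 itself had 56.1, 58.8 and 64.8 CPM against 70.5, 66.9, 80.5 and 78.6 CPM. All 3 dexamethasone libraries were below all 4 vehicle libraries, by -0.30 on the log2 scale (95% interval -0.47 to -0.14, adjusted p = 0.0103). The call was lost without dexamethasone replicate 2 and without replicate 3. FKBP4, the co-chaperone that favours entry of the receptor into the nucleus, was lower by a log2 change of -0.34 (adjusted p = 9.58e-04), and ABCB1, the efflux pump that exports dexamethasone from cells, rose by 0.87 with 16.3, 15.4 and 16.95 CPM against 7.60, 7.92, 9.12 and 11.4 CPM (adjusted p = 5.32e-07). Of 12 tested receptors, chaperones and steroid enzymes 2 were higher and 2 lower, with 1 lower call left without dexamethasone replicate 2 or replicate 3 and 0 with both dex vehicles or the dex vehicle high library alone as control, which ended the calls of NR3C1 and FKBP4. HSP90AA1 (-0.42), HSP90AB1 (-0.12) and HSPA8 (0.05) did not pass. The metallothioneins MT2A and MT1E, metal-binding proteins that glucocorticoids induce, rose by 0.42 and 0.43 (2 of 4 tested), and reads of this family may be split among near-identical copies. MT1E lost its call without dexamethasone replicate 3 and without replicate 4.

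Several of the 15 largest rises were of membrane proteins. ADPRHL1, a pseudoenzyme of the ADP-ribosylhydrolase family known from heart muscle, led them, with 12.97, 10.3 and 9.42 CPM against 0.324, 1.42, 0.713 and 0.456 CPM (log2 4.11, 95% interval 3.54 to 4.69, adjusted p = 1.04e-12). TLR4 (chr9:117704175-117724730), the receptor for bacterial lipopolysaccharide, had 11.6, 13.5 and 12.3 CPM against 2.43, 2.37, 2.90 and 2.51 CPM, a rise of 4.89-fold (log2 2.29, 95% interval 1.75 to 2.83, adjusted p = 1.11e-07). No overlap between groups was a condition for being among the 15 largest rises, so for these genes it is no separate support. CHST2, a sulfotransferase that modifies glycans, rose by 2.25, the receptor tyrosine kinase ROR1 by 1.88, the lipid transporter ABCA8 by 1.81, the large cadherin FAT4 by 1.72 and the creatine transporter SLC16A12 by 1.65. ANXA8 rose by 1.73, but it has a near-identical copy, so its reads are uncertain. ENSG00000285417 and ENSG00000260604, a transcribed pseudogene and a long noncoding RNA without a symbol, rose by 1.86 and 1.67.

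TXNIP, which binds thioredoxin and limits glucose uptake, and its relative ARRDC4 rose together. TXNIP stood at 69.8, 60.1 and 68.1 CPM after dexamethasone and 11.3, 15.1, 23.4 and 24.5 CPM after vehicle (log2 1.90, 95% interval 1.32 to 2.48, adjusted p = 2.87e-05). The vehicle libraries were spread widely, yet all lay below the dexamethasone libraries. That spread does not enter this p-value. With the vehicle libraries as 1 group, where it does, the change was 1.83 (edgeR, adjusted p = 5.04e-05). ARRDC4 measured 7.17, 8.13 and 7.54 CPM against 2.75, 3.37, 4.23 and 4.02 CPM (log2 1.10, adjusted p = 1.12e-04). TXNIP was the only gene named here, of 86 with a RefSeq promoter window, whose 250 bases before the transcription start hold the palindrome of the glucocorticoid response element in the strict form GNACA, 3 free bases, TGTNC. The letters were sought on both strands. The shares over all genes were counted in longer windows that also hold the 50 bases after the start. There the letters occur in 0.209% of 10993 windows. They occur in 5 of 635 windows of genes called higher (0.787%) and in 3 of 608 of genes called lower (0.493%). Nearly all changed genes thus lack these letters in this longer window. The TXNIP window, chr1:145996580-145996829 on the minus strand of GRCh38.p14, is printed 5′ to 3′ with the match, which begins at position -175 from the start, in capitals.
TXNIP: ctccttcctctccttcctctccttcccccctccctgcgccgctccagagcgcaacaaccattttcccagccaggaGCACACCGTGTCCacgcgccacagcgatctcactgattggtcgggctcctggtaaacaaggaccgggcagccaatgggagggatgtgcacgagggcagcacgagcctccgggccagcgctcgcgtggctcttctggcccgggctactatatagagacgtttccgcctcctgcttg

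The falls included membrane, secreted and cytoskeletal proteins. F3 (chr1:94529225-94541800), tissue factor, the membrane protein that starts coagulation, stood at 14.3, 16.2 and 21.8 CPM after dexamethasone and at 72.0, 64.4, 68.1 and 70.8 CPM after vehicle. The vehicle libraries lay close together and the dexamethasone libraries far below them, 3.94-fold lower (log2 -1.98, 95% interval -2.28 to -1.68, adjusted p = 1.36e-11). DCDC2, a microtubule-binding protein, led the 15 largest falls, with 0.961, 1.43 and 1.15 CPM against 15.4, 13.9, 7.39 and 14.4 CPM (log2 -3.38, adjusted p = 1.89e-05). TM4SF1, a tetraspanin-like surface protein, had a log2 change of -1.53, the sodium channel SCN9A of -1.64, the sphingosine phosphate exporter SPNS2 of -1.59 and the ubiquitin ligase SH3RF2 of -1.49. SCN9A varied little within groups, at 2.59, 2.60 and 2.63 CPM against 8.09, 8.11, 8.46 and 7.93 CPM.

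In the 250 bases before the start, 9 of the 86 named genes with a window hold the AP-1 consensus TGANTCA, which reads as itself on both strands. Counted with the 50 bases after the start as well, it occurs in 4.44% of all 10993 windows. The share was 5.51% for genes called higher and 4.28% for those called lower. It was 10 of the 159 windows (6.29%) of genes called at least 2-fold higher and 6 of the 54 (11.1%) of genes called at least 2-fold lower. A match is a description of the letters, not of a site in use. Of the 9 genes ARRDC4, BAG3, MT2A and TUBB3 rose and F3, FST, GJA1, IL11 and RGMB fell. F3, FST and IL11 are shown with the matches in capitals, since they are 3 of the falls described here: F3 from chr1:94541760-94542009 on the minus strand, with matches beginning at positions -223 and -210 from the start, FST from chr5:53480379-53480628 on the plus strand (position -160) and IL11 from chr19:55370464-55370713 on the minus strand (position -96).
F3: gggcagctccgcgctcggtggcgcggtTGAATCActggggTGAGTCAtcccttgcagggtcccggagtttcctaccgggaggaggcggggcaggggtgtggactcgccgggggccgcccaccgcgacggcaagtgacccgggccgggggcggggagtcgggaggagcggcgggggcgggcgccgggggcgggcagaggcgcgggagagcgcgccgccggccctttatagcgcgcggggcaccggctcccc
FST: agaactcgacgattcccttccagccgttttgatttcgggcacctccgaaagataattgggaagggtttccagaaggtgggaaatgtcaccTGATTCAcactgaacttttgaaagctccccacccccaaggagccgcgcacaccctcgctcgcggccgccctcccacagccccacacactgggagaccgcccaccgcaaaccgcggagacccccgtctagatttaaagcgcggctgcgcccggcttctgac
IL11: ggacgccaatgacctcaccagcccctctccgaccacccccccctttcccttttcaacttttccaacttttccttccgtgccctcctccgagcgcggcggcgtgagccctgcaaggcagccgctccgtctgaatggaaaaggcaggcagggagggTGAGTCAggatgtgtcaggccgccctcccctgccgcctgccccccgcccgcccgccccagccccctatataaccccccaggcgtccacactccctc

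Extracellular regulators of activin and BMP signalling moved in different directions. FST, follistatin, which binds and blocks activins, had 5.54, 5.37 and 5.30 CPM against 30.6, 33.0, 26.1 and 34.2 CPM, a 5.70-fold fall (log2 -2.51, 95% interval -2.94 to -2.08, adjusted p = 3.73e-10). INHBA, the activin A subunit itself, had 13.3, 14 and 13.9 CPM against 38.3, 29.5, 33.2 and 31.4 CPM (log2 -1.26, adjusted p = 6.90e-13), and RGMB, a BMP co-receptor, fell by 1.26 as well (adjusted p = 6.82e-16). FSTL3, a relative of follistatin that also binds activin, rose instead by 0.90, with 88.3, 70.8 and 83.5 CPM against 41.9, 46.2, 45.2 and 40.3 CPM (adjusted p = 5.81e-11). None of the 4 genes overlapped between groups, as was so for most called genes. In the list of TGF-beta, YAP and SRF response genes 5 of 25 were higher and 8 lower (52% called, against 10.2% of all tested genes). LTBP2 (1.01) and ANKRD1 (0.62) rose, TGFBI (-0.69), AXL (-0.41) and CNN1 (-0.54) fell, and the contractile genes TAGLN (-0.02), MYL9 (-0.17) and TPM2 (-0.05) did not pass.

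Binding proteins of insulin-like growth factors, which set how much of these factors reaches their receptor, split in a similar way. IGFBP5 (chr2:216672105-216695525) stood at 4.90, 2.52 and 3.64 CPM against 28.96, 30.6, 25.2 and 23.8 CPM, 7.29-fold lower (log2 -2.87, 95% interval -3.26 to -2.48, adjusted p = 4.26e-13). IGFBP3 had 34.4, 31.9 and 32.7 CPM against 48.1, 50.3, 70.8 and 54.5 CPM (log2 -0.74, adjusted p = 1.89e-10), while IGFBP7 rose with 29.1, 33.0 and 25.9 CPM against 15.4, 15.9, 13.7 and 14.1 CPM (log2 0.99, adjusted p = 3.29e-07). The dexamethasone and vehicle libraries did not overlap for these 3 genes, as was so for most called genes. IGFBP4 rose by 0.85. Of 17 tested genes of this axis 4 were higher and 3 lower (41.2% called, against 10.2% of all tested genes). The 10 not called included IGF2 (0.81), INSR (0.34) and IGF1R (0.28). Among the adaptors of the receptors, IRS2 rose by 0.50 and IRS1 fell by 0.38.

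Matrix genes changed in number but not in a common direction. Of 24 fibrillar and matrix-organising genes 8 were higher and 6 lower (58.3% called), and of 21 basement membrane genes 8 were higher and 2 lower (47.6%); 1 lower call was left without dexamethasone replicate 3, the dex vehicle high library or the dex vehicle low library. NID2 (chr14:52004803-52069228), nidogen 2, which links laminin and type IV collagen in basement membranes, had 21.4, 18.95 and 17.03 CPM against 4.85, 2.89, 2.70 and 2.81 CPM, 5.94-fold higher (log2 2.57, 95% interval 2.31 to 2.84, adjusted p = 7.45e-19). The dex vehicle high library was the highest of the vehicle libraries and still well below the dexamethasone libraries. FBN1, fibrillin 1, the core of elastic microfibrils, had 64.1, 53.5 and 56.0 CPM against 24.1, 21.8, 19.4 and 14.7 CPM (log2 1.55, adjusted p = 1.04e-12). The collagen chains COL5A1 (0.88), COL12A1 (0.61) and COL1A1 (0.44) and the basement membrane proteoglycan HSPG2 (0.73) rose as well, as did the laminin chain LAMA5 by 1.02. DCN, decorin, was close to its detection limit in the vehicle libraries (0, 0.047, 0.051 and 0.076 CPM) and at 1.44, 1.43 and 1.44 CPM after dexamethasone, with a fitted difference of 5.29 that was 4.61 with the vehicle libraries as 1 group.

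Other matrix genes fell. THBS2, thrombospondin 2, had 101, 94.6 and 104 CPM against 149, 159, 161 and 147 CPM (log2 -0.62, adjusted p = 1.10e-08), tenascin C (TNC) fell by 0.86, versican (VCAN) by 0.55 and laminin beta 1 (LAMB1) by 0.38. Among the most abundant matrix transcripts, FN1 (0.27), COL4A1 (-0.05), COL4A2 (-0.01) and LAMC1 (-0.01) were not called. HAS2, which makes hyaluronan and is a long known target of glucocorticoid repression in fibroblasts, stood at 9.41, 8.80 and 12.2 CPM against 29.1, 25.4, 27.7 and 31.1 CPM (log2 -1.48, 95% interval -1.73 to -1.22, adjusted p = 8.10e-12). ABI3BP, a collagen-binding matrix protein, fell by 1.65.

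Matrix proteases and their inhibitors were mostly lower where they were called, 6 of 16 tested against 2 higher (50% called, against 10.2% of all tested genes). The aggrecan-cleaving ADAMTS5 had 7.37, 7.97 and 7.90 CPM against 18.3, 18.97, 16.7 and 17.7 CPM (log2 -1.21, adjusted p = 9.88e-08), and ADAMTS6 had 10.9, 9.14 and 10.9 CPM against 29.1, 21.96, 19.9 and 23.6 CPM (log2 -1.18, adjusted p = 1.57e-09). The groups were apart for both. ADAM19 (-0.73), ADAM12 (-0.77), ADAMTS1 (-0.67) and the inhibitor TIMP3 (-0.86) also fell, and MMP19 (1.13) and ADAMTS15 (0.92) rose. MMP14 (0.17), TIMP1 (-0.15) and TIMP2 (-0.04) did not pass. Without dexamethasone replicate 3 the count of higher members was 1.

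All 10 tested pregnancy-specific glycoproteins were lower. These immunoglobulin-like proteins are best known from the placenta, and their genes lie next to each other on chromosome 19 and resemble each other closely, so counts of single members are uncertain. PSG1 had 12.7, 11.9 and 14.03 CPM against 60.2, 51.1, 55.0 and 75.6 CPM, 4.64-fold lower (log2 -2.21, 95% interval -2.53 to -1.89, adjusted p = 5.85e-12), and PSG5 had 15.7, 13.5 and 17.8 CPM against 29.8, 28.2, 29.6 and 33.7 CPM (log2 -0.95, adjusted p = 9.13e-10). The other members lay between -0.87 (PSG2) and -2.73 (PSG7). The family stood out in earlier results of these data, so its shared direction is a description. KRTAP2-3, a keratin-associated protein gene of another repeated family, fell by 1.40.

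Inflammatory genes rose more often than they fell. Of 22 tested cytokines and NF-kB targets 8 were higher and 1 lower (40.9% called). The NF-kB subunits NFKB1 (0.39), NFKB2 (0.49) and RELB (1.47), TLR4 and BIRC3 rose, and the cytokine IL32 rose with 4.48, 3.69 and 2.89 CPM against 1.78, 0.949, 2.19 and 1.18 CPM (log2 1.35, 95% interval 0.79 to 1.91, adjusted p = 6.13e-04). CXCL8 (2.08) and CXCL1 (2.61) were called too, at mean vehicle levels of only 0.768 and 0.102 CPM. The exception was IL11, a cytokine of the IL-6 family made by fibroblasts, with 14.7, 9.47 and 12.7 CPM against 29.3, 34.1, 21.6 and 22.5 CPM (log2 -1.10, 95% interval -1.55 to -0.65, adjusted p = 0.0010). IL6 (-0.36), CCL2 (-0.19) and LIF (-0.22), classic targets of glucocorticoid repression, did not pass. Without dexamethasone replicate 2 the count of higher members was 5, and with the dex vehicle high library as the only control it was 1.

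Of 23 tested interferon-stimulated genes 8 were higher and 0 lower (34.8% called by edgeR). The numbers were 12 and 0 at an unadjusted p under 0.05, and 9 and 0 by DESeq2. Over all 16816 tested genes 3791 passed that unadjusted limit in either direction. IFIT2 had 4.84, 4.28 and 5.16 CPM against 2.91, 2.37, 1.83 and 1.22 CPM (log2 1.26, adjusted p = 1.01e-04), and IFIT3 had 6.15, 6.62 and 5.63 CPM against 1.78, 2.80, 2.60 and 3.11 CPM (log2 1.28, adjusted p = 2.42e-04). Both encode antiviral proteins that bind foreign RNA, and their groups did not overlap. IFIT1 (1.07), OAS3 (1.19), HERC5 (1.21), IFIH1 (0.93), IFIT5 (0.36) and ISG15 (0.50) completed the 8. STAT2 (0.11) and MX1 (0.17) were not called. With the dex vehicle high library as the only control 3 members were called, and with both dex vehicles as control 5 were. With the vehicle libraries as 1 group 7 were called, and 5 when the 2 libraries above 60% ribosomal RNA were also left out.

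Targets of p53, the transcription factor that answers DNA damage, included 10 higher and 0 lower among 21 (47.6% called by edgeR). The numbers were 12 and 0 at an unadjusted p under 0.05, which 3791 of all 16816 tested genes passed in either direction. DESeq2 called 11 and 0. CDKN1A, which encodes the cell cycle inhibitor p21 and is also on the list of receptor targets, had 99.0, 68.5 and 73.5 CPM against 43.8, 56.2, 44.6 and 37.3 CPM (log2 0.84, 95% interval 0.64 to 1.03, adjusted p = 2.56e-08). MDM2, the ligase that degrades p53, had 136, 137 and 125 CPM against 85.1, 86.2, 91.0 and 83.6 CPM (log2 0.62, adjusted p = 3.69e-07), and DDB2, a DNA repair factor, rose by 0.63 (adjusted p = 3.27e-06). Dexamethasone and vehicle libraries were apart for all 3, as they were for most called genes. TP53INP1 (0.68), FAS (1.10) and GDF15 (0.87) rose as well, while BAX (0.01), CCNG1 (-0.06) and SESN2 (0.00) did not pass. Against hydrocortisone 0.01 µM in place of vehicle the count was 6.

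Few cell cycle genes were called, 2.94% of S-phase and 3.12% of G2/M genes against 10.2% of all tested genes. In 34 S-phase genes 0 were higher and 1 lower, RFC4 of the clamp loader (-0.32), and in 32 G2/M genes 1 was higher, KIF20A (0.20), and 0 lower. Median changes were -0.04 and 0.06, and TOP2A (0.07), CCNB1 (-0.03), PCNA (-0.02) and MCM2 (0.01) were near 0. KIF20A's call was lost in 11 of 20 alternative analyses. Of 22 ribosome biogenesis genes and MYC targets 3 were lower, FBL (-0.43), MYC (-0.33) and ODC1 (-0.22), and 0 higher (13.6% called). None of the 13 mitochondrially encoded transcripts was called, and they ranged from -0.16 to 0.33. At an unadjusted p under 0.05 edgeR gave 0 higher and 6 lower S-phase genes and 4 higher and 2 lower G2/M genes. It gave 0 higher and 9 lower ribosome biogenesis genes and 0 mitochondrial transcripts. Of all 16816 tested genes 3791 passed that unadjusted limit in either direction, so the S-phase and G2/M counts do not exceed the overall share. DESeq2 called 0 higher and 1 lower, 1 and 0, 0 and 2, and 0 and 0 in the 4 lists.

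Clock genes divided. PER1, BHLHE41 (2.26) and NPAS2 (1.64) rose and NR1D2 (-0.57), CRY1 (-0.34), PER3 (-0.60) and TEF (-0.56) fell among 18 tested (38.9% called). NR1D2, a repressor of the clock loop, had 22.3, 21.8 and 21.9 CPM against 34.8, 34.6, 30.5 and 30.6 CPM (adjusted p = 2.57e-05). BHLHE41 and NPAS2 were close to the detection limit, and the count of higher members was 1 without dexamethasone replicate 2, without replicate 3 or without the dex vehicle high library. That of lower members was 2 without dexamethasone replicate 2, replicate 3 or the dex vehicle low library.

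Metabolic and stress genes gave mixed and mostly small changes. TXNRD1, the reductase that recycles thioredoxin, had 178, 166 and 193 CPM against 245, 236, 272 and 275 CPM (log2 -0.52, adjusted p = 3.37e-07), the reverse direction of TXNIP. The hexokinase HK2 fell by 0.61 and the glucose transporter SLC2A3 by 0.55, and PFKFB4, which makes an activator of glycolysis, rose by 0.63. Among 28 hypoxia and glycolysis genes 3 were higher and 2 lower (17.9% called, against 10.2% of all tested genes). GAPDH (0.03), PGK1 (-0.03) and LDHA (0.07) did not pass. PSAT1 (-0.74), SHMT2 (-0.37) and PHGDH (-0.33), enzymes of serine and one-carbon metabolism, and TRIB3 (-0.70) were among the 5 lower genes of 24 tested for the unfolded protein response and the integrated stress response. The share called there was 20.8%. No member was higher (0 also at an unadjusted p under 0.05 and by DESeq2), and 3 were lower without the dex vehicle low library, 2 with only the day 6 libraries or only the libraries compared in the fit, and 10 against hydrocortisone 0.01 µM.

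ANGPTL4, an inhibitor of lipoprotein lipase and a known receptor target, was at 2.66, 2.35 and 2.24 CPM after dexamethasone and at 0, 0.237, 0.255 and 0.152 CPM after vehicle. Its fitted change was 4.71, or 3.69 with the vehicle libraries as 1 group. Of the other genes of fatty acid synthesis and lipid handling SCD, the stearoyl desaturase, fell by 0.30. CRYAB, a small heat shock protein, rose with 8.17, 8.05 and 8.01 CPM against 2.75, 3.79, 4.33 and 2.89 CPM (log2 1.25, adjusted p = 5.79e-06), while the inducible HSPA1A (0.20) and HSPH1 (-0.12) did not pass. Of 25 immediate early genes 4 were higher and 1 lower, but 1 higher call was left without dexamethasone replicate 2, dexamethasone replicate 4 or the cort vehicle low library and 2 without any other single library but the dex vehicle low, and FOS (0.75), EGR1 (0.82) and JUNB (0.87) did not pass. In axon guidance genes, 5 of 20 were higher and 1 lower. The share called was 30% there and 20% in the immediate early genes, against 10.2% of all tested genes. PLXNA2, a semaphorin receptor, rose by 1.24 and the secreted SEMA3C fell by 0.52, and 2 higher calls were left without the dex vehicle high library and 3 without dexamethasone replicate 2 or the cort vehicle low library. With the dex vehicle high library as the only control, higher calls fell to 10 of 42 receptor targets, 5 of 24 fibrillar matrix genes, 3 of 21 basement membrane genes (2 with both dex vehicles as control, 4 with only the libraries compared in the fit) and 2 of 17 genes of the insulin-like growth factor axis.

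**Figure D2:**
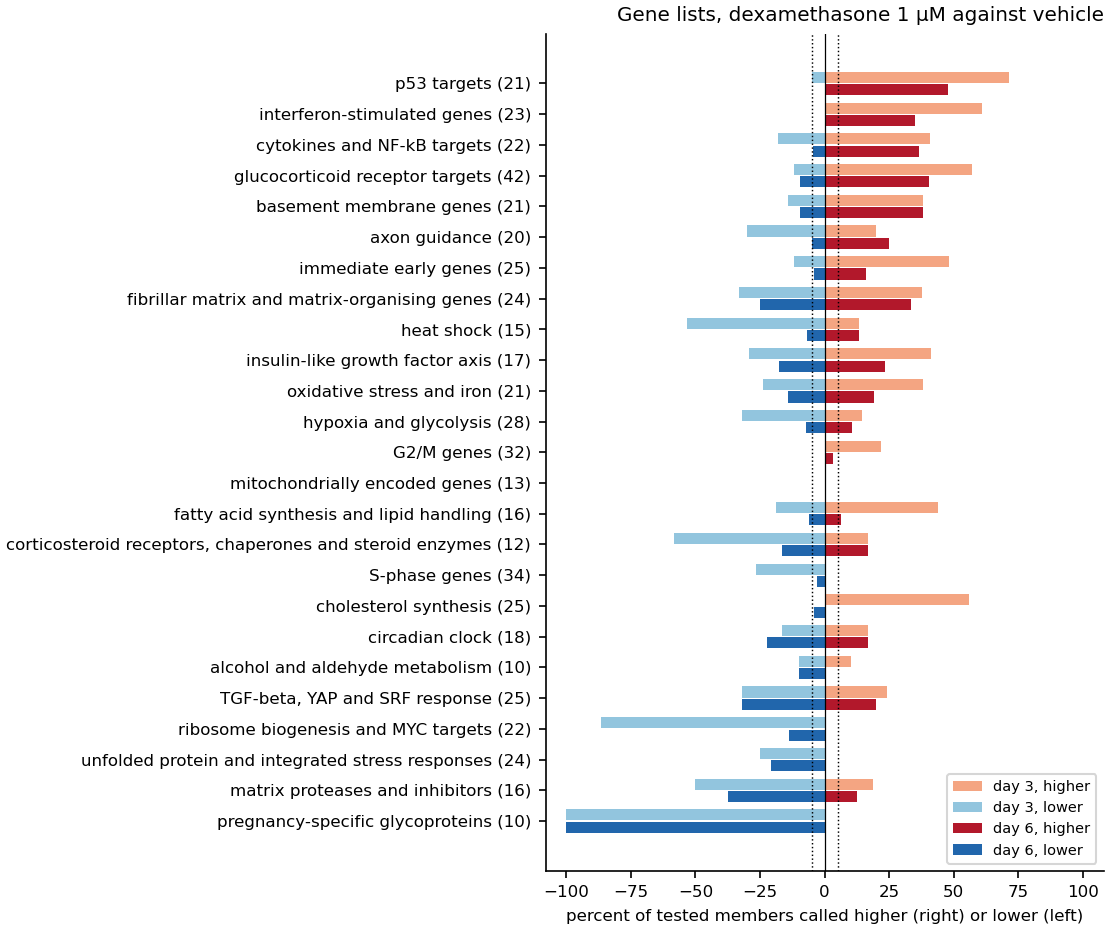
Percent of tested members called higher (bars to the right) or lower (bars to the left) in the lists with at least 5 tested members, leaving out cell type markers and the list chosen on day 3 values, after dexamethasone 1 µM, on day 3 (pale) and day 6 (dark); the number of tested members is in parentheses and the dotted lines mark 5.03% and 5.13%, the shares of all tested genes called lower and higher on day 6. Of the lists drawn, the bars of p53 targets (10 of 21) and receptor targets (17 of 42) reach furthest right on day 6, and that of the pregnancy-specific glycoproteins (10 of 10) furthest left.

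How far the changes were left over from exposure was read from the day 3 libraries. At the end of the 3 days with hormone 4838 genes (28.8%) differed from the 12 vehicle libraries of that day, 2393 higher (14.2%) and 2445 lower (14.5%). Of these 663 (27.7%) and 724 (29.6%) were called in the same direction on day 6, and they made up 76.9% of the day 6 rises and 85.6% of the day 6 falls. Another 4 genes were higher on day 3 and lower on day 6, and 1 was lower and then higher. The control was 12 vehicle libraries on day 3 and 4 on day 6, so a change of equal size was harder to call on day 6. A missing call on day 6 thus does not by itself show a return to vehicle. Genes at least 2-fold higher on day 3 (470) had a median log2 change of 1.43 then and 0.96 on day 6, where 45.5% were called in the same direction, and those at least 2-fold lower (337) went from -1.48 to -0.79, with 51.9% called. These genes were chosen by their day 3 values, so some decline is built into the medians.

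The difference between the day 6 and the day 3 effect itself was called for 283 genes (1.68%), 187 of them with a higher (1.11%) and 96 with a lower value on day 6 (0.571%). In 226 the effect kept its sign and was smaller on day 6, in 2 it was larger, and in 55 the estimates had opposite signs. Of these 55 genes 37 were called against vehicle on day 3 only, 13 on day 6 only and 5 on both days. A reversal was thus shown by calls on both days for 5 genes. Without dexamethasone replicate 4 the count was 159. After washout 115 of the 283 were no longer called against vehicle, and 149 were still called in the direction of day 3.

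**Figure D3:**
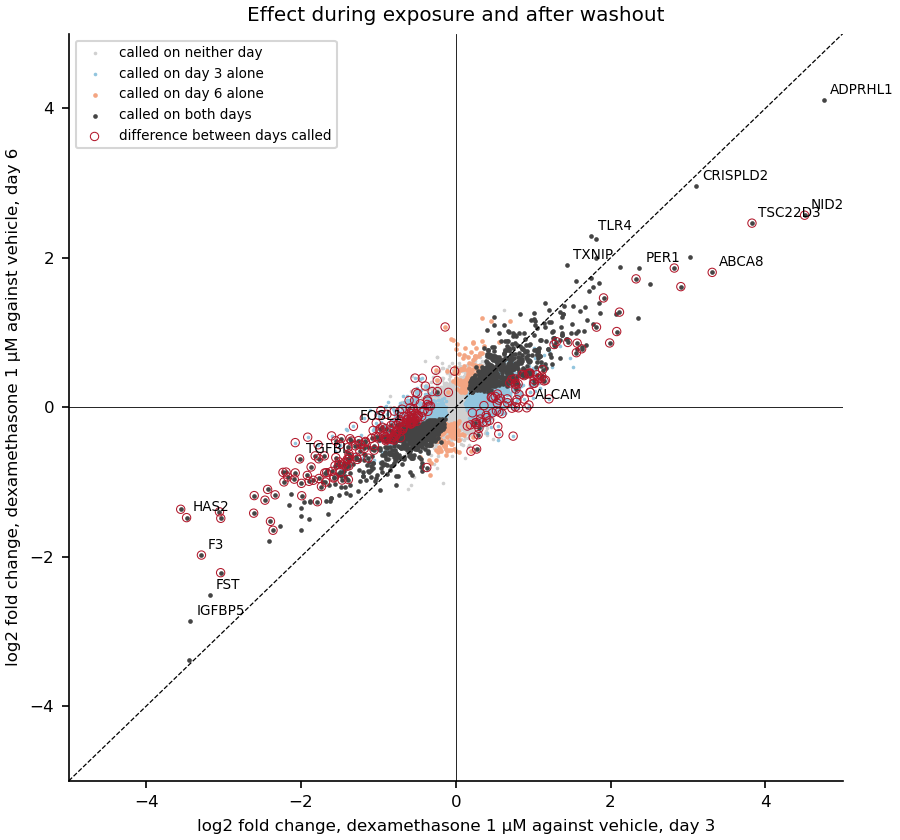
Log2 fold change against vehicle for dexamethasone 1 µM on day 3 (x axis) and on day 6 (y axis), coloured by the day or days of a call. Tested genes with a low mean CPM on day 6 were left out of the drawing. Red rings mark those of the 283 genes with a called difference between days that are drawn, and the dashed line marks equal values. Most ringed genes lie between the dashed line and the horizontal axis, and TLR4 and TXNIP lie above the line with differences that were not called.

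Some responses were no longer called on day 6. ALCAM, a cell adhesion molecule, was at 588 ± 18.1 CPM (SD, n = 3) with hormone and 306 ± 19.4 CPM (n = 12) in that day's vehicle, and on day 6 at 334, 377 and 350 CPM against 341, 325, 353 and 366 CPM. The groups overlapped, and the change fell from 0.95 to 0.03 (difference -0.92, adjusted p = 1.59e-10). GLUD1, glutamate dehydrogenase, went from 0.77 to 0.01 (difference -0.76, adjusted p = 5.73e-07). FOSL1, an AP-1 subunit, was at -1.32 on day 3 and -0.26 on day 6 (adjusted p = 0.0927 against vehicle), a difference of 1.07 (adjusted p = 3.84e-07). As lists, cholesterol synthesis had 14 of 25 members higher on day 3 and 0 on day 6, when 1 was lower, INSIG1 (-0.51), and ribosome biogenesis and MYC targets had 19 of 22 lower on day 3 and 3 on day 6. The difference between days was called for 7 of those 22 genes and for 0 of the 25 cholesterol genes (edgeR; 14 of the 25 at an unadjusted p under 0.05), so a loss of the cholesterol response was not shown for single genes.

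Others had shrunk but remained. HAS2 was at 2.09 ± 0.356 CPM (n = 3) with hormone against 23.5 ± 3.84 CPM (n = 12), a fall of 3.48 that had become 1.48 on day 6 (difference 2.00, adjusted p = 3.88e-11). NID2 was at 71.1 ± 5.39 CPM with hormone, a rise of 4.51, and the difference from day 6 was -1.94 (adjusted p = 9.70e-11). TSC22D3 went from 3.83 to 2.46 (difference -1.36, adjusted p = 0.00962), ABCA8 from 3.31 to 1.81 (difference -1.51, adjusted p = 4.08e-10) and F3 from -3.29 to -1.98 (difference 1.31, adjusted p = 2.35e-05). TGFBI, a matrix protein induced by TGF-beta, went from -2.02 to -0.69 (difference 1.33, adjusted p = 1.99e-10). MOK and ST6GAL2 fell on both days, with differences of 0.94 and 1.22, and NPR3, the clearance receptor of natriuretic peptides, rose on both with a difference of -0.84.

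For further genes a difference between the days was not shown. CRISPLD2 was at 3.11 on day 3 and 2.96 on day 6 (difference -0.14, adjusted p = 0.866) and FBN1 at 1.72 and 1.55 (difference -0.17, adjusted p = 0.757). TLR4 at 1.75 and 2.29 and TXNIP at 1.44 and 1.90 were the larger on day 6, by 0.54 (adjusted p = 0.603) and 0.47 (adjusted p = 0.709). FST was at -3.18 and -2.51, and IGFBP5 at -3.43 and -2.87, differences of 0.67 (adjusted p = 0.234) and 0.57 (adjusted p = 0.278). FKBP5 was at 1.34 and 0.90 (difference -0.44, adjusted p = 0.183).

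After washout the 1 µM cells differed also from cells that had received less or another hormone. Against dexamethasone 0.01 µM 526 genes (3.13%) were called on day 6, 232 higher (1.38%) and 294 lower (1.75%), and against hydrocortisone 10 µM 327 (1.94%), 167 higher (0.993%) and 160 lower (0.951%). Both comparisons use the same 3 dexamethasone 1 µM libraries as the one with vehicle. Hydrocortisone, the natural hormone also called cortisol, was given at another dose, so hormone and dose cannot be told apart there. Without dexamethasone replicate 2 the counts were 343 and 186, and without replicate 3 they were 293 and 161. Hydrocortisone 0.01 µM, which left 15 genes higher and 0 lower than vehicle on day 6 (edgeR, with 1634 at an unadjusted p under 0.05), served as another control. In the 1 µM dexamethasone cells 658 genes were higher and 837 lower than in those cells. Of the changes against vehicle 426 rises and 554 falls were called in this comparison too. It uses the same 3 dexamethasone 1 µM libraries and the same fit, so part of this sharing is built in.

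Levels after washout are given for 3 of the named genes in the order of the groups. TSC22D3 was at 15.4 ± 3.22 CPM after dexamethasone 1 µM, 4.28 ± 0.838 after hydrocortisone 10 µM, 3.74 ± 0.582 after dexamethasone 0.01 µM, 3.14 ± 1.49 after hydrocortisone 0.01 µM (SD, n = 3 each) and 2.79 ± 0.283 in vehicle (n = 4). The 1 µM group lay far above the others, by 1.84 on the log2 scale from hydrocortisone 10 µM (adjusted p = 2.60e-05) and 2.04 from dexamethasone 0.01 µM (adjusted p = 2.49e-06). Its neighbours lay within their spread of each other. The libraries of hydrocortisone 10 µM (3.55 to 5.19 CPM) and dexamethasone 0.01 µM (3.30 to 4.40 CPM) were nevertheless all above the 4 vehicle libraries (2.54 to 3.07 CPM), a smaller difference that was not tested here. FST was graded over the groups, at 5.403 ± 0.123 CPM after dexamethasone 1 µM, 13.6 ± 0.792 after hydrocortisone 10 µM, 17.97 ± 1.57 after dexamethasone 0.01 µM, 31.0 ± 3.57 in vehicle and 40.2 ± 7.79 after hydrocortisone 0.01 µM. The 1 µM group was lower than hydrocortisone 10 µM by -1.33 (adjusted p = 1.79e-04) and than dexamethasone 0.01 µM by -1.73 (adjusted p = 1.49e-06). IGFBP5 had a like order, at 3.69 ± 1.19, 11.3 ± 1.59, 12.4 ± 1.92, 27.1 ± 3.19 and 28.5 ± 4.07 CPM, where hydrocortisone 10 µM and dexamethasone 0.01 µM lay within their spread, as did vehicle and hydrocortisone 0.01 µM.

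**Figure D4:**
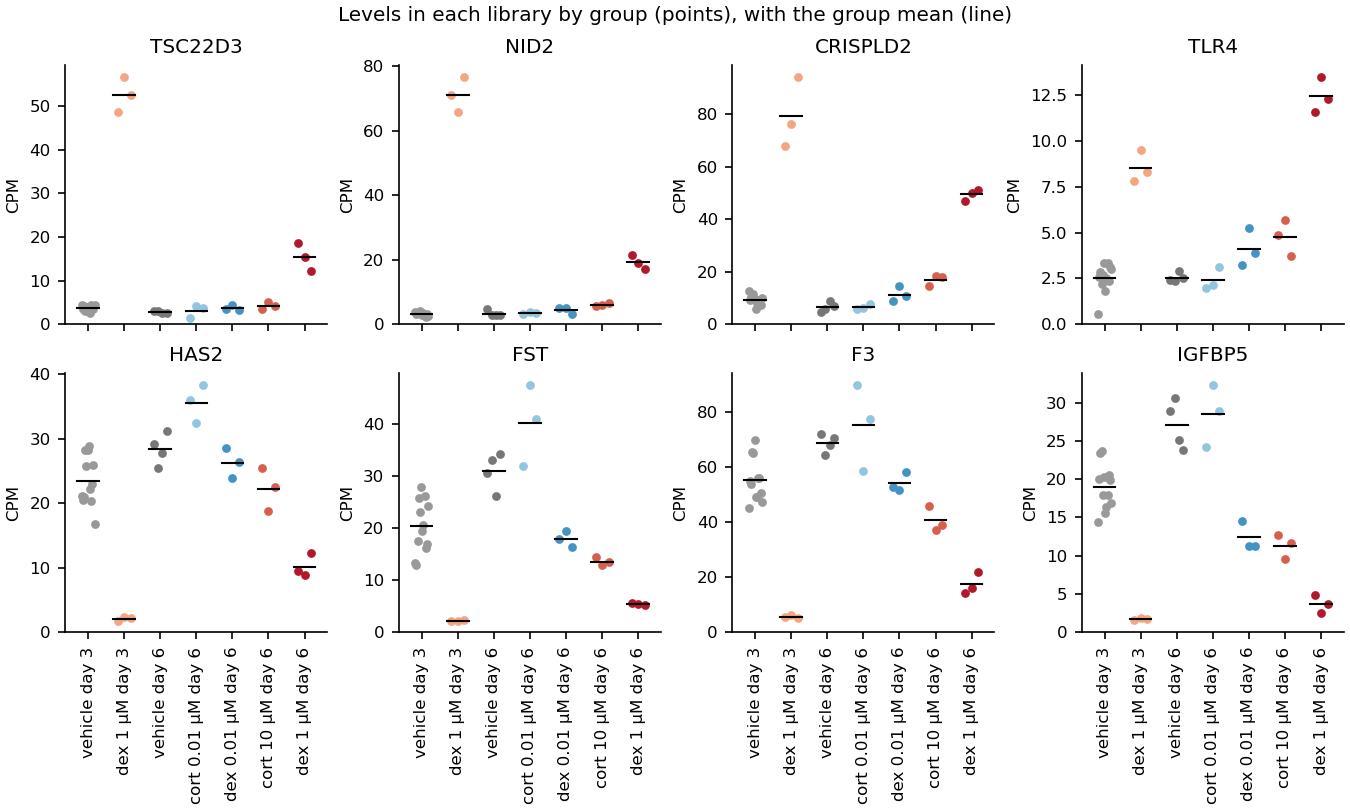
CPM of the TMM-scaled library for TSC22D3, NID2, CRISPLD2, TLR4, HAS2, FST, F3 and IGFBP5; points are libraries, lines are group means, and groups are vehicle and dexamethasone 1 µM on day 3, then vehicle, hydrocortisone 0.01 µM, dexamethasone 0.01 µM, hydrocortisone 10 µM and dexamethasone 1 µM on day 6. The day 6 dexamethasone 1 µM points lie above those of the other day 6 groups in the upper row and below them in the lower row, and their mean lies between the day 3 group means in all panels but that of TLR4.

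HAS2 had a log2 difference of -1.37 from dexamethasone 0.01 µM (26.2 ± 2.32 CPM) and of -1.13 from hydrocortisone 10 µM (22.2 ± 3.34 CPM). Genes with the smallest p in both comparisons included APOL2, an apolipoprotein L (log2 1.18 and 0.88), the lysosomal protease CTSC (-0.85 and -0.72), MAP3K7CL (-0.74 and -0.61), RGMB (-1.03 and -0.70) and IGFBP3 (-0.97 and -0.69). NPR3 was higher by 0.79 and 0.64, and AOX1, aldehyde oxidase, by 1.17 and 0.81. SCN9A was 1.21 lower than in dexamethasone 0.01 µM cells on the log2 scale but not called against hydrocortisone 10 µM (-0.53, adjusted p = 0.115). TXNIP, at 48.7 ± 14.98 CPM after dexamethasone 0.01 µM and 49.5 ± 11.96 CPM after hydrocortisone 10 µM, differed from the 1 µM cells by 0.44 (adjusted p = 0.643) and 0.41 (adjusted p = 0.635). ARRDC4 (0.28 and 0.40) and PFKFB4 (0.19 and 0.16) were not called in either comparison, whereas against hydrocortisone 0.01 µM TXNIP (1.77), ARRDC4 (1.48) and PFKFB4 (0.65) were all higher in the dexamethasone 1 µM cells.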

How the data were processed

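RNA of 43 HMC3 cultures was sequenced as stranded, paired-end total RNA libraries. The authors deposited 1 table of raw read counts, whole numbers with no scaling, with a row per Ensembl gene. The submitters' processing notes name STAR, featureCounts with Subread, FastQC and build GRCh38. Versions and settings, strand included, were not given in the sources used here, so overlapping and antisense genes are uncertain, as are near-identical ones.

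Of 20052 genes, 16816 passed edgeR's filterByExpr (minimum count 10, total 15). One quasi-likelihood fit (edgeR 4.0.16, R 4.3.3, TMM scaling, robust) held all libraries in 17 groups with 26 residual degrees of freedom. Day 6 dexamethasone was compared with the mean of the 4 vehicle groups of 1 library each, each taken to have the spread of the replicated groups. The threshold was a Benjamini-Hochberg adjusted p of 0.05 within each comparison. Averaging coefficients of single libraries enlarges fitted changes of genes with a count of 0 in 1 of them. Libraries of the dexamethasone group differed by more than counting noise (variance ratios 1.84 to 3.07). The fit was tested on simulated data.

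Named genes are the 15 largest rises and falls among called genes without overlap at a mean log2 CPM of at least 1, up to 3 members of each of 33 lists with the smallest p, 5 genes per direction in each of the 3 difference tests, and fixed receptor and day 3 genes; other list members are given by value only. The members and lists were chosen with earlier results of these data known. Positions are GENCODE v29 on GRCh38, promoter windows RefSeq on GRCh38.p14 (10993 of 15536 symbols matched). ZBTB16, a fixed gene, was not tested. A few list members are not reported here by name. Alternatives were DESeq2 1.42.0, other scaling, filter, libraries and controls, a replicate block and leaving out each library. Using hydrocortisone 0.01 µM as control and leaving out libraries rich in ribosomal RNA were chosen after seeing the data.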

Additional observations from a re-analysis of the deposited data

Results flagged for a closer look

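For 36 of the 114 named genes the effect of dexamethasone 1 µM differed between day 6 and day 3 by the test of the difference itself (edgeR, adjusted p under 0.05). Over all tested genes the number was 283 (1.68%). Some named genes were chosen by this same test, 5 per direction, and others by their day 3 change. The larger share among the named genes is therefore built into their choice in part. On the log2 scale the effect was lower on day 6 than on day 3 for NID2 (-1.94), ABCA8 (-1.51), TSC22D3 (-1.36), CERNA2 (-1.29), ENSG00000285417 (-0.96), ALCAM (-0.92), NPR3 (-0.84), GLUD1 (-0.76), FAT4 (-0.61), ABCB1 (-0.58), MT2A (-0.46), APOL2 (-0.45) and COL5A1 (-0.42), all genes that rose on day 3. It was higher for genes that fell on day 3. These were RGS4 (2.19), HAS2 (2.00), KRTAP2-3 (1.65), IL11 (1.33), TGFBI (1.33), F3 (1.31), ST6GAL2 (1.22), TMEM158 (1.19), FOSL1 (1.07), MOK (0.94), TM4SF1 (0.87), PSG1 (0.82), ADAMTS6 (0.81), THBS2 (0.76), ABI3BP (0.72), IGFBP3 (0.70), CTSC (0.68), PSG5 (0.63), RGMB (0.52), ODC1 (0.52), MAP3K7CL (0.50), LAMB1 (0.39) and HSPD1 (0.39).

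In 5 of the 114 named genes 1 of the 4 day 6 vehicle libraries stood far from the other 3, and chance alone flags about 1 group in 20. The dex vehicle high library was the highest for NID2 at 4.85 CPM (others 2.70 to 2.89) and for CRY1 at 28.6 CPM (others 25.5 to 26.0). The dex vehicle low library was the highest for ALDH1L1 at 4.27 CPM (others 2.16 to 2.45) and the lowest for ST6GAL2 at 31.3 CPM (others 32.9 to 33.0) and NPR3 at 102.8 CPM (others 115.8 to 118.5).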

How the results depend on the processing

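No called change of a named gene turned its sign under any alternative run, and 27 of the 109 called named genes lost their call in at least 1 of 19 or 20 alternatives each. The calls lost most often were those of ODC1, ALDH1L1, KIF20A, HSPD1, TUBB3 and FOSL2; ALDH1L1, HSPD1, ODC1 and TRIB3 overlapped between groups. DUSP1, not called, was at -0.09 against hydrocortisone 0.01 µM. Calls against vehicle numbered 1134 (590 higher, 544 lower) with both dex vehicles as control, 791 (441 and 350) with the dex vehicle high library alone and 1548 (686 and 862) with vehicle as 1 group. Genes at least 2-fold higher numbered 153 with only the libraries compared, 166 with the day 6 libraries, 155 with vehicle as 1 group and 144 against hydrocortisone 0.01 µM. The difference between days was called for 460 genes with the dex vehicles. Calls against hydrocortisone 10 µM numbered 501 by DESeq2, 657 without ribosomal RNA genes, and 820 with only the libraries compared. Changing the vehicle coding to 1 group and leaving out the 2 libraries above 60% ribosomal RNA together gave 1038 calls against vehicle (460 and 578), 126 at least 2-fold higher, 188 for the difference between days, 295 against dexamethasone 0.01 µM and 165 against hydrocortisone 10 µM. The last was 529 with that coding and no library above 75% ribosomal RNA, and the coding alone gave 268, 513 and 324 for those 3 comparisons.

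Leaving out 1 library at a time gave 1063 to 1726 calls against vehicle (506 to 899 higher, 557 to 827 lower, 154 to 283 at least 2-fold higher, 71 to 91 at least 2-fold lower), 159 to 306 for the difference between days, 293 to 417 against dexamethasone 0.01 µM and 161 to 264 against hydrocortisone 10 µM. No likeness by replicate number was seen: same-numbered dexamethasone and vehicle libraries had correlations of -0.38, -0.36 and -0.27, and the other pairs ran from -0.23 to 0.55. Such a small number of pairs, each with another vehicle label, cannot settle whether the numbers pair the samples. With the replicate block 1614 genes were called. The median half-width of a 95% interval was 0.23 on the log2 scale at a mean log2 CPM of at least 1, which limits how small a change could be called.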
